A study of Callithrix jacchus with 3 samples.

Results

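The genes described here carry symbols that begin with SPATA (spermatogenesis associated), TEX followed by a number (testis expressed), TSSK (testis-specific serine kinase) or CCDC followed by a number (coiled-coil domain containing). Their RNA levels come from RNA-seq of testis from adult common marmosets (Callithrix jacchus), small monkeys of South America. Protein-coding entries were used, an entry being 1 transcript with 1 value, and the values of all entries of a symbol were summed. The choice used names alone, and it gave 112 of 11345 named protein-coding symbols, with 141 of 14502 entries. Of these, 13 were SPATA, 12 TEX, 2 TSSK and 85 CCDC genes, and 1 further TEX gene is not used here.

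The series holds 3 datasets of wild type adult testis: RNA-seq, a total small RNA library (age 41 months) and the small RNA that coprecipitated with MARWI, a PIWI protein. Only RNA-seq is used here. Its label gives 2 replicates, aged 41 and 51 months, and 1 column of values covers both. The spread between animals is thus unknown, and neither ages nor gene families could be tested against each other. Values are RPKM, reads per kilobase of transcript scaled to sequencing depth, so levels of different genes are compared per length. The table lists values above 0, from 0.000844 RPKM, and gives no counts, so the depth is unknown. A gene with no entry is not shown to be unexpressed.

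Spermatogenesis runs from dividing spermatogonia through meiotic spermatocytes to haploid spermatids, which build an acrosome, a condensed nucleus and a flagellum. SPATA and TEX are names given to genes found through their expression in the testis, and their proteins have no common fold. TSSK genes encode a true family of protein kinases made in spermatids. CCDC genes share only a predicted coiled coil, a rod of wound helices common in structural proteins, and include parts of the sperm axoneme (the microtubule core of the flagellum) as well as proteins of centrosomes, mitochondria and the nucleus.

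Marker genes of late germ cells were the highest of those checked. The spermatid genes PRM1, TNP1 and ODF1 stood at 7177, 1678 and 480 RPKM, and the spermatocyte genes LDHC, HORMAD1 and SYCP1 at 114, 65.3 and 49.9 RPKM. The spermatogonial genes GFRA1 and STRA8 were at 0.854 and 0.463 RPKM. Of the somatic markers with an entry, CLDN11 of Sertoli cells was at 27.7, STAR of Leydig cells at 4.91, CD68 of macrophages at 0.913 and AMH of immature Sertoli cells at 0.148 RPKM. Of the 23 markers listed, 11 had no named entry, among them both endothelial ones. The tissue was sequenced whole, so fewer cells of a type and less RNA per cell cannot be told apart.

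The first question was how the families compared in level. TSSK and SPATA genes were the highest, TEX genes were intermediate and CCDC genes were lower and more spread by fold. The median was 40.2 RPKM for the 2 TSSK genes, 32.8 RPKM for SPATA, 17.2 RPKM for TEX and 6.9996 RPKM for CCDC, beside 2.52 RPKM for all named protein-coding symbols. The median of SPATA was thus 1.90 times that of TEX and 4.68 times that of CCDC. These ratios are descriptions of 1 dataset in which genes are not replicates.

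The families overlapped. The middle 50% of the values ran from 17.6 to 48.6 RPKM in SPATA, from 10.5 to 28.3 in TEX and from 2.20 to 15.6 in CCDC. Of the 85 CCDC genes, 12 lay above the SPATA median and 20 above the TEX median, so the highest CCDC genes exceeded most members of the other families. SPATA levels spanned 55.2-fold from lowest to highest and TEX levels 15.4-fold. CCDC levels ran from 0.00732 to 137 RPKM, an 18653-fold range. Its lower end is 1 gene, CCDC198, and a range widens with the number of genes, here 85 against 13 SPATA and 12 TEX.

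Nearly all members were at 1 RPKM or more, namely 13 of 13 SPATA, 12 of 12 TEX, 2 of 2 TSSK and 75 of 85 CCDC genes, beside 64.7% of all named symbols. At 10 RPKM or more there were 11 SPATA, 10 TEX, 2 TSSK and 36 CCDC genes. These are 84.6%, 83.3%, 100% and 42.4% of each family, against 21.9% of all named symbols. At 30 RPKM or more the shares drew apart: 7 SPATA genes (53.8%) and both TSSK genes, but 2 TEX genes (16.7%) and 16 CCDC genes (18.8%), beside 7.17% of all named symbols. TEX and SPATA therefore held like shares at 10 RPKM and differed at 30 RPKM.

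By rank, 11 of 13 SPATA, 10 of 12 TEX and 38 of 85 CCDC genes were in the top 25% of named symbols, which begins at 8.51 RPKM. In the top 10%, from 22.7 RPKM, were 8 SPATA, 4 TEX, 2 TSSK and 19 CCDC genes. The bottom 25%, up to 0.453 RPKM, held 8 members, and all 8 were CCDC genes. With 8 of 85, CCDC genes were thus also rarer there than the 25% of all named symbols.

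Other sets of genes that share only a naming scheme, picked for comparison after the data had been seen, were lower. TMEM genes (transmembrane proteins) had a median of 1.54 RPKM over 134 symbols, FAM genes 3.03 over 94 and ZNF genes (zinc finger proteins) 2.91 over 220. Of these, 14.9%, 23.4% and 16.4% were at 10 RPKM or more, against 42.4% of CCDC genes.

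**Figure D1:**
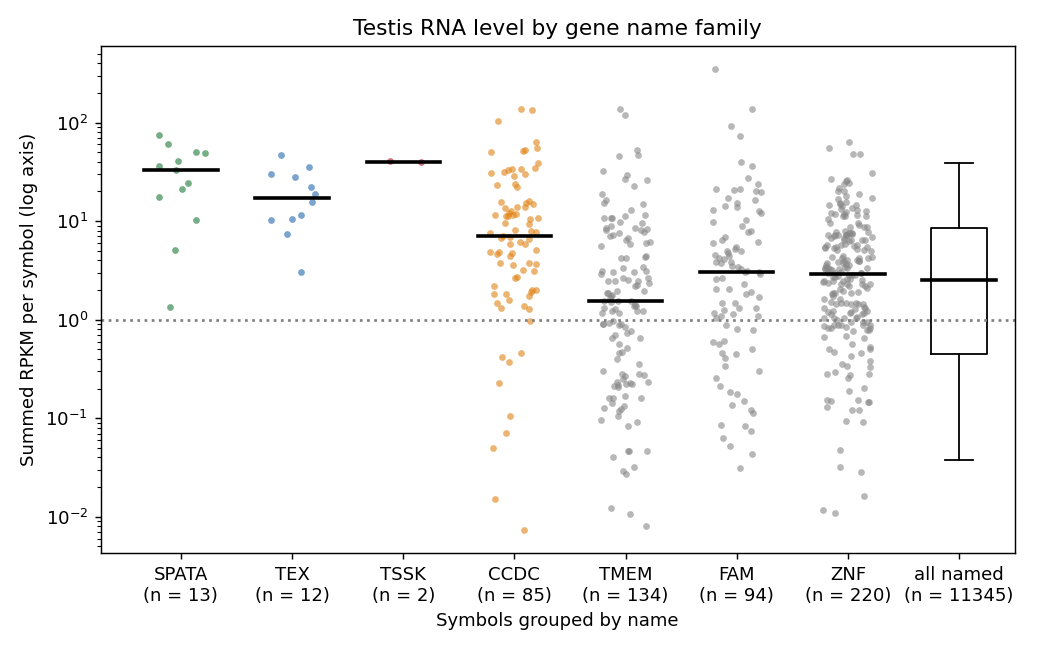
Each point is 1 gene symbol, grouped by name on the horizontal axis, with its summed RPKM on a logarithmic vertical axis; black bars are medians, the box shows the quartiles of all 11345 named symbols with whiskers at the 5th and 95th percentiles, and the dotted line is 1 RPKM. The TSSK and SPATA medians of 40.2 and 32.8 lie highest, and CCDC points reach from 0.00732 to 137 RPKM.

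The kinases were described first. Of 5 listed TSSK genes, TSSK2 and TSSK6 had an entry, and TSSK1B, TSSK3 and TSSK4 had none under that name. TSSK6, known to be needed for the packing of DNA in spermatids, stood at 40.8 RPKM, rank 536 of 11345. TSSK2, which phosphorylates the spermatid protein TSKS, was at 39.5 RPKM, rank 564. The 2 kinases were thus at nearly the same level per length. TSSK2 was listed at chr1:183533245-183534591 on the plus strand, a span of 1.35 kb, and TSSK6 on an unplaced piece of chromosome 22 with a span of 2.50 kb. The build behind these coordinates is not given in the sources used here. Reads that TSSK2 may share with a close copy such as TSSK1B cannot be told apart in these values.

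Of 6 genes listed as partners of the kinases, which are not members, 5 had an entry, and 3 of these were higher than the kinases themselves. TSKS was at 77.3 RPKM, and TSACC, which helps to activate TSSK6, at 12.0 RPKM. The chaperones HSP90AA1 and HSPA8 stood at 354 and 165 RPKM, and HSP90AB1 at 10.7 RPKM. The substrate TSKS was thus 1.89 times as high per length as TSSK6 and 1.96 times as high as TSSK2, and the cochaperone lower than both.

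SPATA genes of sperm structure formed the bulk of that family. Of 17 listed genes of sperm structure and spermiogenesis, 10 had an entry, with a median of 34.4 RPKM. Of these 10, 9 were at 10 RPKM or more, beside 21.9% of all named symbols. SPATA20, with a thioredoxin-like domain, led the family at 74.4 RPKM, rank 201. SPATA18, known for mitochondrial quality control, was at 49.9 RPKM and SPATA33, a mitochondrial protein of the sperm midpiece, at 48.6 RPKM. SPATA19, a further mitochondrial protein of the midpiece, was lower at 21.2 RPKM.

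The other genes of this list were SPATA9 at 41.1, SPATA3 at 35.9, SPATA25 at 32.8, SPATA4 at 24.1 and SPATA32 at 17.6 RPKM. SPATA21, which carries a calcium-binding motif, stood apart at 5.06 RPKM. Its value is the sum of entries at 3.01 and 2.05 RPKM. Without SPATA21, the genes of the list lay within 4.24-fold, between 17.6 and 74.4 RPKM.

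SPATA genes known from many tissues spread more widely, and 3 of the 7 listed had an entry. SPATA7, known from the cilium of photoreceptors and from inherited retinal disease, was second in the family at 60.9 RPKM, from entries of 31.7 and 29.3 RPKM. SPATA13, an activator of the small GTPases Rac and Cdc42, was at 10.4 RPKM. SPATA2, an adaptor of tumour necrosis factor signalling, was the lowest SPATA gene at 1.35 RPKM, below 60.4% of named symbols. Genes that are not restricted to the testis thus stood both near the top and at the bottom of the family.

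TEX genes were listed by like roles. The SPATA and TEX lists were written with earlier results of these data known, and some hold few genes with an entry. Nothing is therefore read from the order of their medians. Of 22 listed TEX genes of sperm structure and spermiogenesis, 9 had an entry, 3 of them under a current name, with a median of 13.9 RPKM, and 5 of 6 listed genes of many tissues had one, with a median of 18.9 RPKM. The highest TEX genes under this symbol were TEX30 at 46.8 RPKM and TEX2, a lipid transfer protein of the endoplasmic reticulum, at 35.8 RPKM, and both are known from many tissues. TEX10, part of a nuclear complex of ribosome assembly, was at 18.9 RPKM. TEX264, a receptor for the autophagy of the endoplasmic reticulum, was at 10.2 RPKM, and TEX261, an adaptor of vesicle export from that compartment, was lowest at 3.04 RPKM.

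Among the sperm genes, TEX38, a partner of a spermatid palmitoyltransferase, was at 29.9 RPKM, TEX29 at 27.8 and TEX36 at 22.3 RPKM. TEX55 was at 11.6, TEX26 at 10.6 and TEX22 at 7.39 RPKM. TEX11, an X-linked gene needed for meiotic recombination, was at 15.5 RPKM and was the only one of 5 listed genes of meiosis and germ cell bridges with a named entry. It was also the only member on the X chromosome. By fold, the widest step between neighbours in the order of the 12 TEX genes was the lowest one, from 7.39 to 3.04 RPKM.

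Listed TEX genes that have since been renamed were found under their current symbols and are not counted among the 12. CATSPERZ, formerly TEX40 and a subunit of the calcium channel of the sperm flagellum, was at 719 RPKM, rank 10 of 11345 and 15.4 times the highest gene that still carries a TEX symbol. SPMIP10, formerly TEX43 and a sperm microtubule inner protein, was at 13.9 RPKM, and SPMIP9, formerly TEX37, at 6.0005 RPKM. With these 3, the TEX median was 15.5 RPKM, so the median depended little on the renaming whereas the maximum did.

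**Figure D2:**
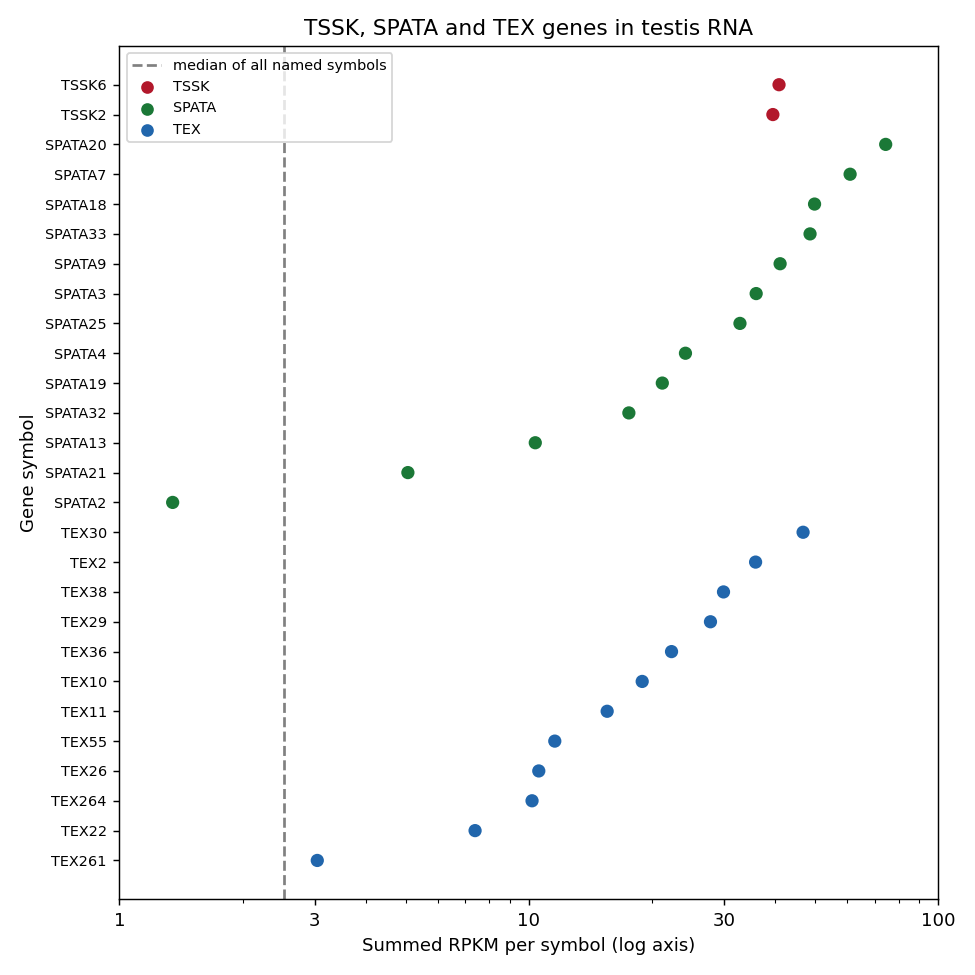
Each point gives the summed RPKM (logarithmic horizontal axis) of 1 TSSK, SPATA or TEX gene, sorted within its family, and the dashed line is the median of all named symbols, 2.52 RPKM. SPATA2, at 1.35 RPKM, is the only point to the left of that line.

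CCDC genes were ordered by role through 8 lists, which also name genes that now have other symbols. Medians ran from 31.3 RPKM for the list named sperm head, head-tail coupling and acrosome to 3.60 RPKM for mitochondrial genes. Genes of centrosomes had a median of 20.7, those of the axoneme and cilia 15.5, those of vesicle traffic and endoplasmic reticulum 11.8, those of meiosis 10.4, those of signalling and secretion 4.50 and those of splicing, nucleolus and ribosome 3.91 RPKM. All 8 medians lay above the 2.52 RPKM of all named symbols. The lists were written with earlier results of these data known, so nothing is read from this or from the order of the roles. The lists hold 3 to 16 genes with an entry and overlap widely in level.

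The axoneme list was the longest, and 16 of its 23 genes had an entry, 5 of them under a current name. Of the 16, 15 (93.75%) were at 1 RPKM or more and 10 (62.5%) at 10 RPKM or more. Of all named symbols, 64.7% and 21.9% were. CCDC19, now CFAP45 and a protein inside the axonemal microtubules, was the highest CCDC gene at 137 RPKM, rank 89. It was listed at chr18:13430408-13459263 with 2 entries of 78.2 and 58.4 RPKM over nearly the same span. CCDC11, now CFAP53, was at 50.7 RPKM, and BBOF1, formerly CCDC176 and known from basal bodies, at 45.3 RPKM.

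CCDC67, now DEUP1 and known for the mass production of centrioles in multiciliated cells, was at 38.9 RPKM. CCDC63, needed for the dynein arms of the sperm flagellum, was at 34.4 RPKM and DRC2, formerly CCDC65 and part of the nexin-dynein regulatory complex, at 34.2 RPKM. CCDC147, now CFAP58 and needed for flagellum assembly, was at 23.7 RPKM, CFAP263 (CCDC113) at 16.2 and CCDC105, a tektin-like protein, at 14.8 RPKM. These 9 genes form the upper part of the axoneme list.

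CCDC39 and CCDC40, which together set the repeat length of the axoneme, were at 7.79 and 10.9 RPKM. CCDC135, now DRC7 of the same regulatory complex as DRC2, was at 6.59 RPKM and CCDC37, now CFAP100, at 6.07 RPKM. The dynein docking genes known from airway cilia were low, with CCDC151 (ODAD3) at 2.20 and CCDC114 (ODAD1) at 1.47 RPKM. CCDC63, known for the same step in sperm, was 15.6 times as high as CCDC151 per length. CFAP65, formerly CCDC108, was the lowest of the list at 0.690 RPKM.

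The list named sperm head, head-tail coupling and acrosome had 9 of 18 genes with an entry. Of the 9, 5 were at 30 RPKM or more, beside 7.17% of all named symbols. The name of the list covers CCDC62 and CCDC42, whereas CCDC146 and CCDC172 are known from the flagellum. The roles of the others are less clear, so the list median is not that of head and acrosome genes alone. CCDC7 was at 105 RPKM, CCDC62, an acrosomal protein needed for male fertility in mice, at 63.7, CCDC54 at 54.7 and CCDC42, needed for the coupling of sperm head and tail, at 52.3 RPKM. CCDC89 was at 31.3 and CCDC83 at 29.0 RPKM. CCDC146, a centriolar protein needed for the sperm flagellum, was at 9.33 RPKM and CCDC70 at 4.39 RPKM. CCDC172, known from the sperm midpiece, was far lower at 0.420 RPKM, and its span overlaps GFRA1 on the opposite strand.

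All 3 listed meiosis genes had an entry. CCDC155, now KASH5, which links telomeres to the motors that move meiotic chromosomes, was at 32.7 RPKM. CCDC79, now TERB1, which fastens telomeres to the nuclear envelope, was at 10.4 RPKM, and CCDC36, now IHO1, needed for meiotic DNA breaks, at 5.89 RPKM. CCDC155 was thus 5.55 times as high as CCDC36, and CCDC79 lay between them.

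Centrosomal genes included both high and low members, and 6 of 9 listed had an entry. CEP83, formerly CCDC41 and part of the appendages that anchor a centriole, was at 57.0 RPKM, CCDC15, a protein of the centriole wall, at 31.1 and CCDC112 at 30.01 RPKM. CCDC66 was at 11.3, CCDC102B at 3.13 and CCDC61 at 0.463 RPKM. Further centrosomal genes outside the lists, named here after their values were seen, were CCDC18 at 51.4, CCDC21 (now CEP85) at 33.7, CCDC45 (CEP95) at 23.2, CCDC46 (CEP112) at 13.8 and CCDC123 (CEP89) at 1.84 RPKM. CCDC68, of centriole appendages, was also outside the lists and far lower at 0.228 RPKM. These genes are not a full set, so nothing is read from their levels as a group.

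The lists with the lowest medians were those of mitochondria and of splicing, nucleolus and ribosome. Of 4 mitochondrial genes with an entry none reached 10 RPKM, with CCDC127 at 4.67, MCUB (CCDC109B) at 3.64, the potassium channel gene CCDC51 at 3.56 and the calcium uniporter gene MCU (CCDC109A) at 0.597 RPKM. Of 9 genes listed under splicing, nucleolus and ribosome, 2 (22.2%, beside 21.9% of all named symbols) reached 10 RPKM, the splicing genes YJU2B (CCDC130) at 18.7 and CCDC55 at 13.4 RPKM. The others were CCDC59 at 5.82, SGF29 (CCDC101), a chromatin reader, at 5.72, GPATCH11 (CCDC75) at 3.91, CCDC86 at 2.71, CCDC12 at 2.67, the ribosome-binding CCDC124 at 1.74 and CWC25 (CCDC49) at 1.58 RPKM.

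The vesicle traffic list had 4 genes with an entry, led by WASHC3, formerly CCDC53 and a subunit of the actin-nucleating WASH complex, at 86.3 RPKM. CCDC186, of dense-core vesicles, was at 15.6, CCDC47, of membrane protein insertion, at 7.92 and CCDC132, now VPS50 of endosome recycling, at 4.80 RPKM. In the signalling list CCDC88A, known as girdin, an actin-binding modulator of G proteins, stood alone at 135 RPKM, rank 93. Next were CCDC50 at 13.9 and CCDC6 at 7.53 RPKM. The secreted proteins CCDC80 and CCDC3, known from connective tissue and fat, were at 1.46 and 0.369 RPKM, and CCDC69 was at 0.981 RPKM.

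**Figure D3:**
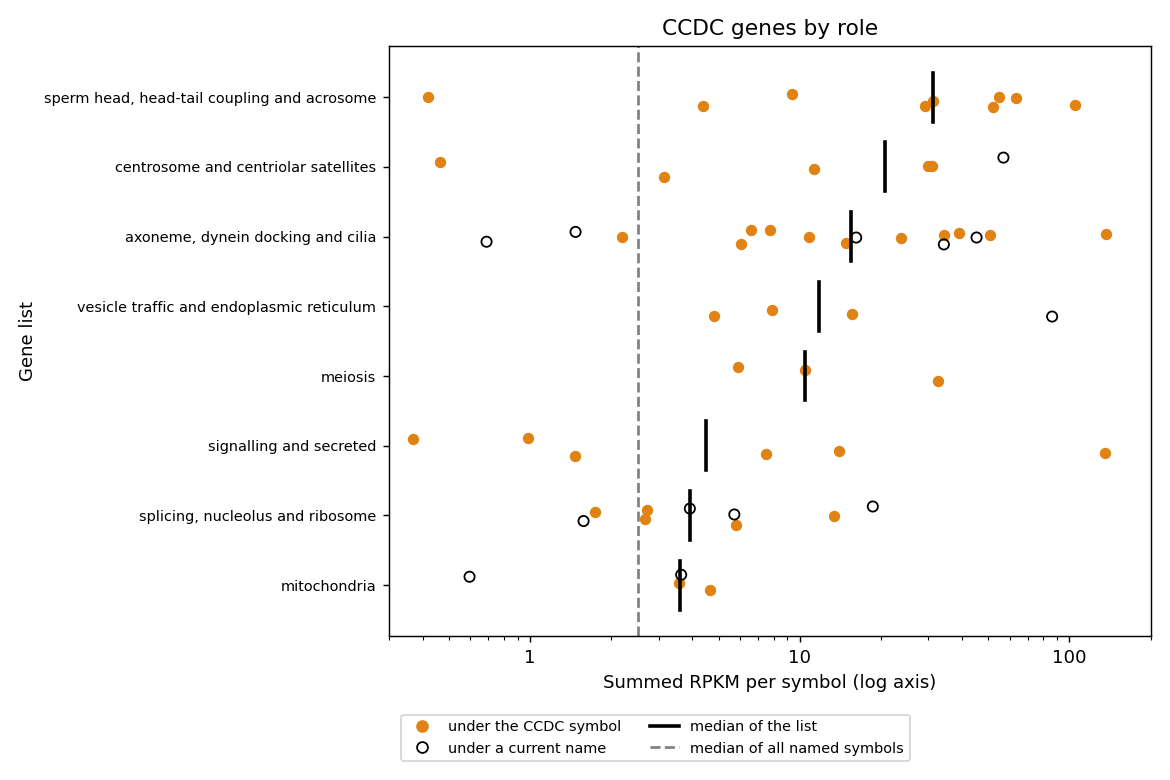
Points are genes of the 8 CCDC role lists (vertical axis, sorted by median) against summed RPKM on a logarithmic horizontal axis; filled points carry a CCDC symbol, open points are listed CCDC genes found under their current name, black bars are list medians and the dashed line is the median of all named symbols. List medians fall from 31.3 to 3.60 RPKM while single genes of most lists lie on both sides of 10 RPKM.

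The 41 CCDC genes in no role list had a median of 4.89 RPKM, beside 9.89 RPKM for the 44 in a list, and since the lists were written with earlier results of these data known, nothing is read from this difference. Of the 41, 14 (34.1%, beside 21.9% of all named symbols) were at 10 RPKM or more. After CCDC18, given above, the highest was CCDC92 at 34.1 RPKM. CCDC174, known from mRNA processing, was at 15.3 RPKM, and CCDC87 and CCDC157, both known from the acrosome, were at 11.4 and 5.09 RPKM, these 3 being named after their values were seen. Under 1 RPKM were 10 members, all of them CCDC genes. These were 10 of 85 CCDC genes, a smaller share than the 4008 of 11345 among all named symbols. The lowest was CCDC198 at 0.00732 RPKM, followed by CCDC190 at 0.0153, CCDC9B at 0.0495, CCDC141 at 0.0707, CCDC48 (now EFCC1) at 0.105 and CCDC68, of centriole appendages, at 0.228 RPKM. With no counts, it cannot be said how many reads lie behind values this low. The remaining ones under 1 RPKM were CCDC3, CCDC172, CCDC61 and CCDC69, all given above with their lists.

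Several transcripts stood behind some of the highest values. Of the 112 members, 87 had 1 entry, 21 had 2 and 4 had 3, so 22.3% had more than 1 entry, beside 23.5% of all named symbols that lie on 1 chromosome. The highest entry was over 2 times the lowest in 14 of these 25 members. Leaving aside CCDC7, whose entries lie at 2 loci, the highest entry had the shortest span in 16 of 24 members and the longest in 8. The same share over all symbols with more than 1 entry was not computed, so nothing is read from this count. Some of the spans were nearly equal, such as 56.885 and 56.88 kb in SPATA7 and 28.856 and 28.839 kb in CCDC19. CCDC88A had entries of 93.7, 33.2 and 8.51 RPKM, and the highest of them had the shortest span, 81.4 kb against 125 and 128 kb. CCDC83 showed the same order, with 20.6 RPKM for the entry of 45.0 kb and 6.66 and 1.79 RPKM for those of 72.5 and 72.8 kb.

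CCDC147 likewise had 18.8 RPKM for an entry of 17.5 kb and 4.92 RPKM for one of 143 kb, and TEX2 had 23.6 RPKM for an entry of 67.7 kb and 6.33 and 5.82 RPKM for those of 108 and 77.2 kb. CCDC167 was among the 8 of the other kind, with 15.1 RPKM for its entry of 23.8 kb and 6.95 RPKM for one of 2.08 kb. Entries of 1 symbol share sequence, and how the authors divided reads between them is not given in the sources used here. CCDC7 is a different case, because its 2 entries lie apart on chromosome 7. The one named CCDC7, at chr7:29276512-29384160, had 75.4 RPKM, and the one at chr7:29515642-29700778, named through its LOC number, had 29.1 RPKM.

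CCDC genes with more than 1 entry were higher than those with 1, at a median of 15.8 RPKM over 22 genes against 6.07 RPKM over 63. All named symbols showed the same order, at 5.62 and 1.79 RPKM. When the highest entry alone was used for each symbol, the CCDC median was 6.78 RPKM, against 6.9996 RPKM with the sum. For the 63 genes with 1 entry the 2 values are the same, so this median could move little. The difference between genes with 1 and with more entries was not recomputed in this way.

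**Figure D4:**
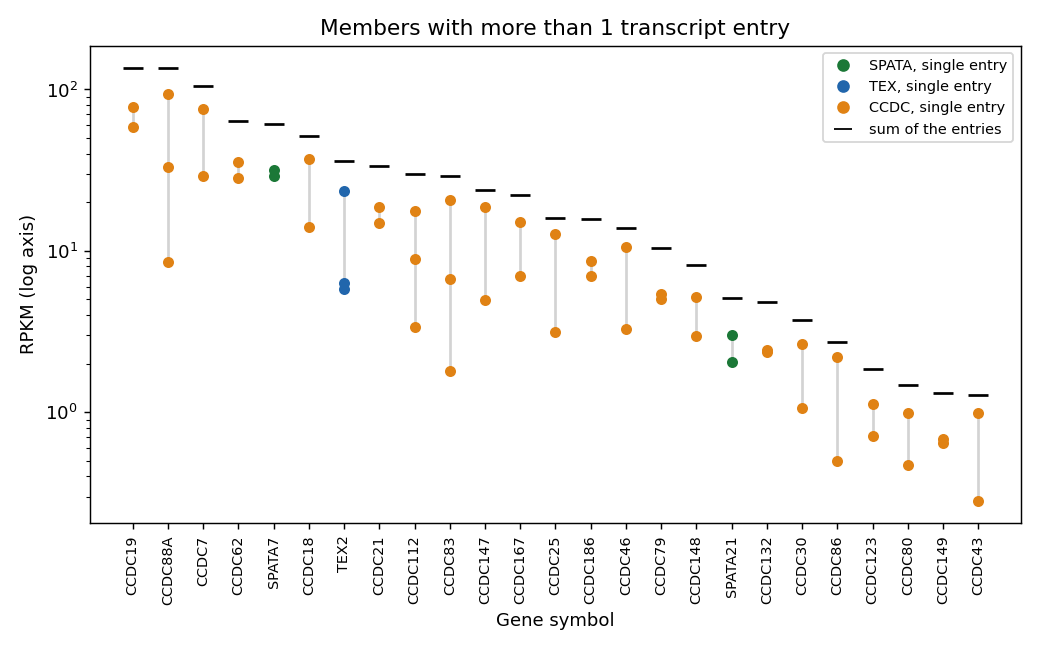
For each of the 25 members with more than 1 transcript entry (horizontal axis, sorted by sum), coloured points give the RPKM of single entries on a logarithmic vertical axis, grey lines join them and black dashes give their sum. CCDC88A and CCDC83 have entries over 11-fold apart, whereas the entries of CCDC132, CCDC149 and SPATA7 nearly coincide.

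Position and size were features that the choice by name did not use. The span of a gene here is the distance from the first start to the last end of its entries, introns included. Median spans were 1.92 kb for TSSK, 12.5 kb for SPATA, 23.5 kb for TEX and 40.4 kb for CCDC, beside 26.3 kb for all named symbols on 1 chromosome. The families with the higher levels thus had the shorter spans, in the same order.

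A span under 3 kb was found in 13 members. They are TSSK2, TSSK6, SPATA25, SPATA32, TEX38, TEX55, CCDC54, CCDC89, CCDC121, CCDC185, CCDC87, CCDC166 and CCDC71, and their median was 17.6 RPKM, with 13 of 13 at 1 RPKM or more. All 871 named symbols of such a span had a median of 1.29 RPKM, and 53.0% of them were at 1 RPKM or more. Among the CCDC genes alone, level did not fall steadily with span. Their medians were 11.7 RPKM under 3 kb (7 genes), 4.67 from 3 to 30 kb (27 genes), 7.66 from 30 to 100 kb (38 genes) and 9.33 at 100 kb or more (13 genes). All 10 members under 1 RPKM had spans between 3 and 100 kb. Most members had such spans, 39 of them from 3 to 30 kb and 45 from 30 to 100 kb. Of all named symbols under 1 RPKM on 1 chromosome, 1981 were at 3 to 30 kb and 923 at 30 to 100 kb. Fewer were under 3 kb (409) or at 100 kb or more (691), so nothing is read from the spans of the 10 members.

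**Figure D5:**
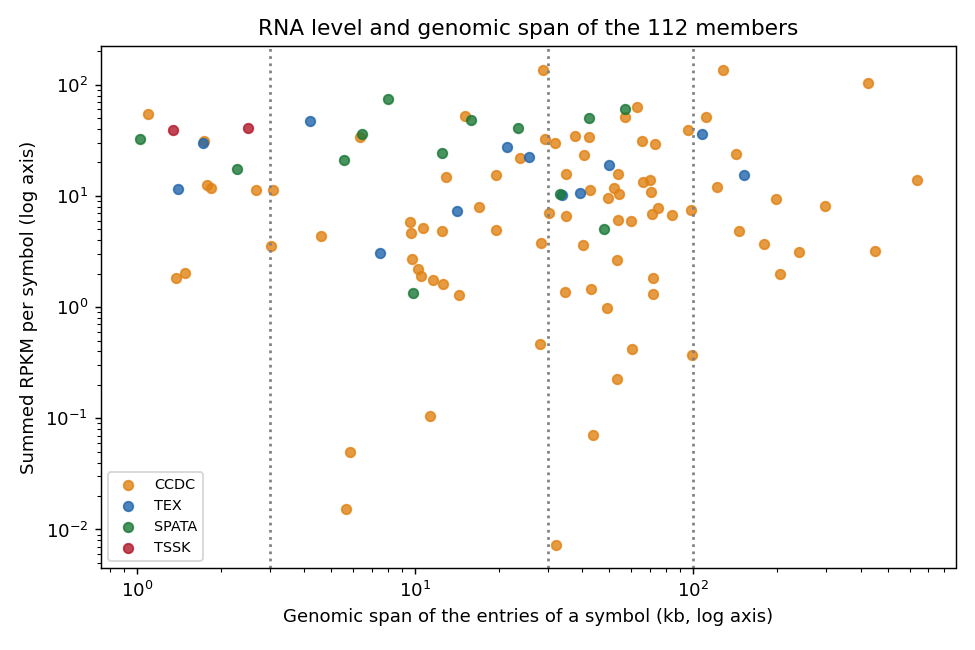
Each point is 1 of the 112 members, with the genomic span of its entries in kb (logarithmic horizontal axis) and its summed RPKM (logarithmic vertical axis), coloured by family; dotted lines mark 3, 30 and 100 kb. The 13 members under 3 kb all lie above 1 RPKM, and the 10 members under 1 RPKM lie between 3 and 100 kb, as do most members.

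Members were spread over 21 autosomes and the X chromosome. Chromosome 5 carried 15 members (13.4%, beside 9.27% of all named symbols) and chromosome 15 carried 14 (12.5%, beside 4.10%), 12 of them CCDC genes. The X chromosome carried 1 (0.893%, beside 3.62%). Neighbouring members seldom lay close together, and 8 neighbouring pairs were under 1000 kb apart. CCDC83 and CCDC89, 167 kb apart on chromosome 11 and on opposite strands, were at 29.0 and 31.3 RPKM. CCDC71 and CCDC36, 30.8 kb apart on chromosome 15, were at 1.83 and 5.89 RPKM.

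For 11 members, all CCDC genes, the span overlapped an entry of another gene, and reads of overlapping genes may not be told apart. CCDC30, at 3.73 RPKM, contains or overlaps YBX1 at 101 RPKM on the same strand. CCDC48, at 0.105 RPKM, overlaps KIAA1257 at 7.88 RPKM on the opposite strand. The library was directional per the labels, and whether strand was used in counting is not given in the sources used here. Without these 11 members the CCDC median was 7.66 RPKM.

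The names limited which genes could be seen. Of 61 members the symbol came from a LOC number, of 50 from the table's own name and of CCDC7 from both. CCDC genes with their own name had a median of 10.03 RPKM and those named wholly through LOC numbers 4.67 RPKM, and 9 of the 10 members under 1 RPKM were of the latter kind. All named symbols did not show this order, at 2.35 and 2.75 RPKM. RefSeq lists 25 SPATA, 31 TEX, 3 TSSK and 126 CCDC protein-coding symbols, and of these 12, 19, 1 and 59 had no entry under that name. They include SPATA6, SPATA16, SPATA22, TEX14, TEX15, TEX101 and TSSK4. The shares above therefore describe the genes with a named entry, not whole families.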

How the data were processed

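RNA-seq of wild type testis was deposited as 1 column of RPKM per transcript, and the authors' RPKM values are used as deposited. Per the labels, the library was directional and had 2 replicates. How they were combined, which genome build was used and with which settings reads were mapped is not given in the sources used here. Per the submitters' processing notes, Bowtie, TopHat and Cufflinks were among the tools, without versions. Low values show no whole-read steps that could be used, so depth is unknown and no interval is given.

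Symbols are the table's common names. LOC numbers were resolved to symbols with RefSeq (assembly calJac240_pri), from which no coordinates were taken, and 934 of 7099 protein-coding entries with a LOC number gave no symbol. Another 1303 entries had no name. Levels of 1, 10 and 30 RPKM were counted. Coordinates are those of the deposited table.

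The members and gene lists were chosen with earlier results of these data known. Named genes are every TSSK gene, the 12 highest and 6 lowest of each other family and all list members; the further CCDC genes given for centrosomes, short spans, several entries, overlaps and neighbours were named after their values were seen. Current names of renamed genes were written from knowledge. Summaries were checked on simulated tables. Genes are not replicates, so no test was made. Python 3.11.15 was used with pandas 2.3.3, numpy 2.4.6 and matplotlib 3.10.9.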

Additional observations from a re-analysis of the deposited data

How the results depend on the processing

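All 104 recomputed values lay at or within 1.5 times the reported ones. This bound was used because no replicate spread was known, and it does not measure the spread between animals. Many values could hardly move, since the 2 TSSK genes have 1 entry each and shares near 100% cannot rise 1.5-fold. The recomputed values covered the median and the shares at 1 and 10 RPKM of the 4 families. Planned for the medians were the highest or mean entry, own common names and a minimum of 0.1 RPKM. Planned for the shares were the highest entry and, for the share at 1 RPKM, limits of 0.1 and 5 RPKM. For the shares, the mean entry, own common names and the minimum of 0.1 RPKM were not planned. Chosen after seeing the data were names from LOC numbers alone, Ensembl gene IDs, former symbols and leaving out overlapping genes. Of the medians, that of CCDC moved most, from 6.9996 to 10.03 RPKM with own names and 4.77 with LOC entries. The share of CCDC genes fell from 88.2% at a limit of 1 RPKM to 58.8% at 5 RPKM, which lay at the bound. Such a fall is not particular to CCDC genes. Of all 11345 named symbols 7337 were at 1 RPKM or more, and SPATA21 at 5.06 RPKM had rank 4094. The order TSSK, SPATA, TEX, CCDC held under each setting but own names, where SPATA (42.5 RPKM, 4 genes) was above TSSK (39.5 RPKM, 1 gene). Membership by synonyms of the RefSeq table gave no value, since none of its synonyms is a family symbol. No paired analysis was possible because each dataset is 1 column. The single column and the unknown depth limit every value.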
